A study of Mus musculus with 12 samples.

Results

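Endothelial identity genes were examined in RNA-Seq libraries of cultured mouse cardiac fibroblasts, in control cultures and after Cre-mediated deletion of Smad7 (Smad7-KO). The 32 genes were selected by their gene name in the deposited count table, which lists 35275 genes, and 26 of the 32 passed the filter on low counts that left 15150 genes for testing. They comprise 7 transcription factors, 8 receptors, 9 junction and surface proteins, 4 secreted proteins and 4 further genes, namely Nos3, Gpihbp1, Rasip1 and Myct1. The question asked of each gene was whether its RNA was lower in Smad7-KO cultures or was kept, and how it changed with TGF-β1 in each genotype.

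All cultures came from the hearts of 12-week-old C57BL/6 mice (C57BL/6J in the methods) that carry a floxed Smad7 gene according to the labels, and were used at passage 2. Unstimulated control cultures received a control adenovirus at 100 MOI for 48 hours, which the labels describe as expressing GFP and the methods as empty. Unstimulated Smad7-KO cultures received an adenovirus that expresses the Cre recombinase instead, so the deletion depended on infection of each cell and was not limited to a cell type by a promoter. TGF-β1 control and TGF-β1 Smad7-KO cultures were infected likewise and then stimulated with TGF-β1 at 10 ng/ml, for 2 hours by one label and for 4 hours by another. Each of the 4 groups has 3 libraries, described as independent samples without naming separate animals or cultures, so p values measure the spread between these libraries, which may in part be technical. The fibroblasts were obtained by adherence to plastic and serial passage, without a sort that would remove other cell types.

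Endothelial cells line blood vessels and the inner surface of the heart. Their identity is maintained by transcription factors of the ETS and SOX families and, with blood cells, by Tal1 and Lmo2, and it is recognised by VE-cadherin junctions, the Tie receptors of the angiopoietins, sialomucins on the luminal surface and stored von Willebrand factor. Several of these genes are also used elsewhere. Fli1, Lmo2 and Tal1 act in blood lineages, and Eng, Acvrl1 and Cd34 are also found on mesenchymal cells.

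In the libraries as a whole, fibroblast and macrophage markers gave far more reads than endothelial genes. Col1a1, the fibrillar collagen chain of fibroblasts, was at 1713 CPM (counts scaled to the TMM-normalized library size) in unstimulated control libraries and Lyz2, the macrophage lysozyme, at 12410 CPM, whereas the 32 endothelial genes summed to 1237 to 1342 CPM. Total counts were 19056916 to 25371321 per library (median 22660845). Reads of Smad7 itself averaged 74.4 ± 2.94 CPM (SD, n = 3) without and 29.4 ± 1.48 CPM (SD, n = 3) with the deletion in unstimulated libraries, and 146 ± 4.24 and 76.8 ± 5.89 CPM (SD, n = 3) in TGF-β1 control and TGF-β1 Smad7-KO libraries. All Smad7-KO libraries were thus below the control libraries of the same stimulation, with reads remaining at 39.5% and 52.7% of the control mean. Unstimulated control libraries 2 and 3 stood apart in opposite directions. When tested genes were split by length into 3 equal parts, the median log2 deviation from the group mean was 0.32 for the shortest and -0.31 for the longest genes in library 2, against -0.28 and 0.32 in library 3. Summed fibroblast markers in unstimulated control libraries 1, 2 and 3 were 15220, 9814 and 20440 CPM, and summed macrophage markers were 23810, 27990 and 18270 CPM, so the same libraries were also at the extremes of both lists.

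Of the 26 tested genes, 16 were lower in Smad7-KO cultures with and without TGF-β1, 3 were lower in 1 of the 2 comparisons and 7 were lower in neither. A gene was called where edgeR's quasi-likelihood test gave a Benjamini-Hochberg adjusted p of 0.05 or less over all tested genes. In unstimulated cultures 18 endothelial genes were called lower and 2 higher, where 13.7% of all tested genes were called lower and 12.1% higher. With TGF-β1, 17 were called lower and 2 higher, where the background was 7.23% lower and 5.72% higher. The median log2 fold change of the 26 genes was -1.30 without and -0.99 with TGF-β1, against -0.02 for all tested genes in each comparison. The 16 genes lower in both, called lost here, are Sox7, Sox18, Erg, Tie1, Acvrl1, Eng, Ramp2, Cdh5, Icam2, Emcn, Cd34, Plvap, Egfl7, Mmrn2, Esm1 and Myct1. For each of them the 3 Smad7-KO libraries lay below the 3 control libraries in both comparisons, as was the case for 19.2% of all tested genes in unstimulated and 23.0% in TGF-β1-stimulated cultures. These 16 genes were grouped by the same tests, so their common direction is a description. In bulk RNA, fewer endothelial cells and less of an RNA per cell cannot be told apart.

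**Figure D1:**
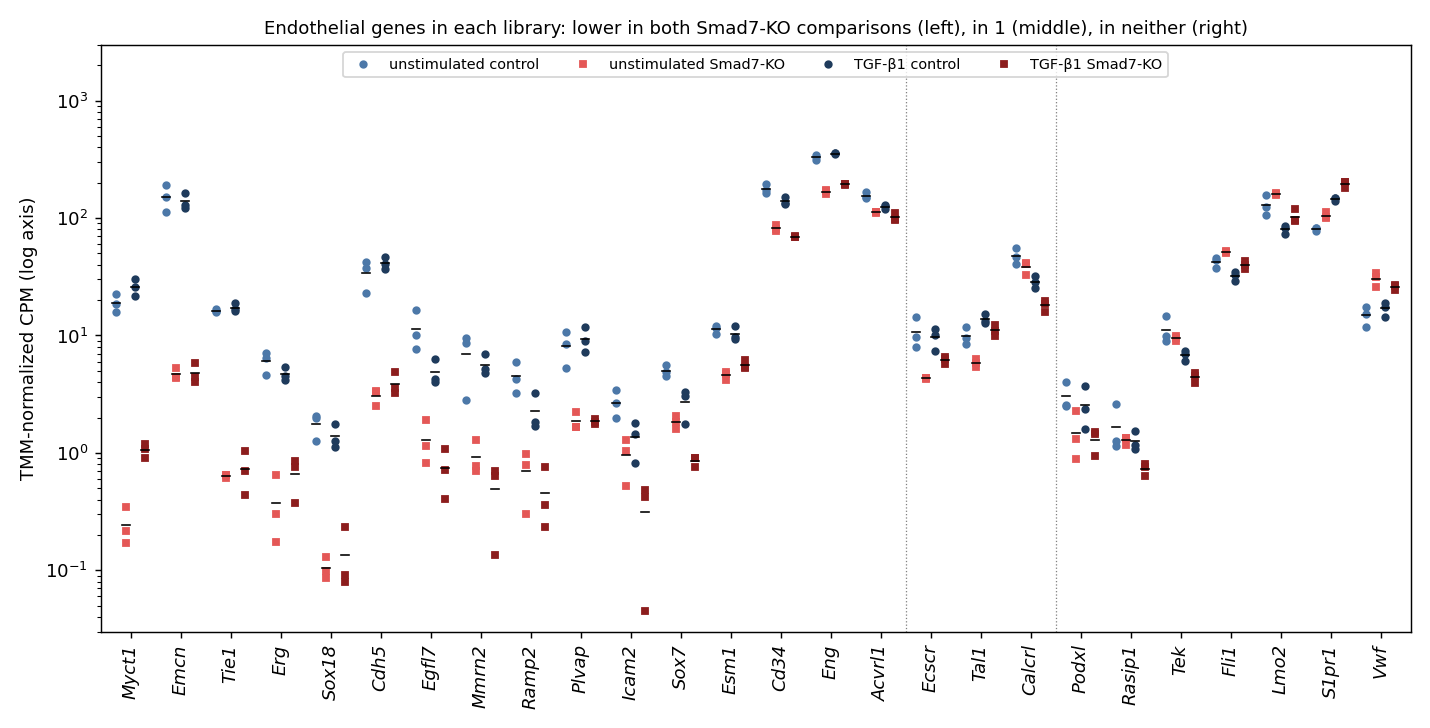
TMM-normalized CPM (log axis) of the 26 tested endothelial genes, with 1 point per library, 3 libraries per group and a short line at the group mean. The 16 genes on the left were lower in Smad7-KO in both comparisons and their control and Smad7-KO points do not overlap, the 3 in the middle were lower in 1 comparison, and the 7 on the right in neither.

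The loss was graded. Unstimulated Smad7-KO cultures held between 1.29% (Myct1) and 72.0% (Acvrl1) of the control mean for the 16 lost genes, with a median of 14.3%, and 6 of them were under 10%. With TGF-β1 the residual level was 3.42% (Emcn) to 81.2% (Acvrl1), with a median of 17.6%, and again 6 were under 10%. The summed level of the 16 genes was 889 to 969.5 CPM in unstimulated control and 375 to 391 CPM in unstimulated Smad7-KO libraries, and 856 to 935 and 376 to 396 CPM in TGF-β1 control and TGF-β1 Smad7-KO libraries. This sum was narrow within each group, but Eng, Acvrl1 and Cd34 made up most of it. Their means were 329, 155 and 177 CPM in unstimulated control and 168, 112 and 81.9 CPM in unstimulated Smad7-KO libraries. Among the lost genes under 10% in both comparisons were Tie1, Cdh5 and Emcn, whereas Eng, Acvrl1 and Cd34 kept from 46.2% to 81.2%. Without unstimulated control library 2, 16 genes were lost, and without library 3, 17.

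**Figure D2:**
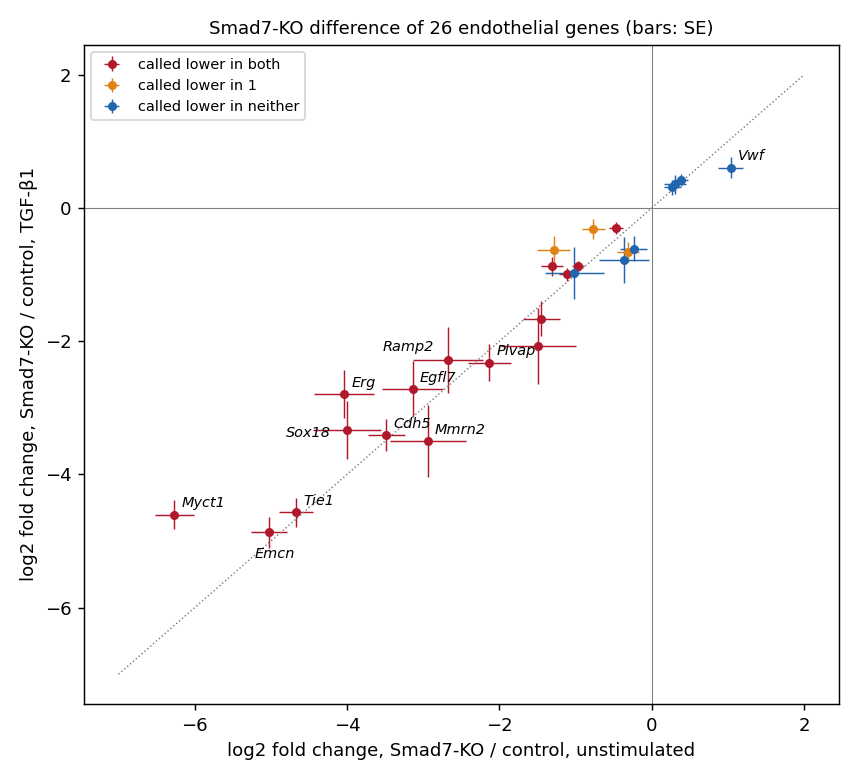
Log2 fold change of Smad7-KO over control in unstimulated cultures (horizontal axis) and in TGF-β1-stimulated cultures (vertical axis) for the 26 tested genes, with bars of 1 standard error and a dotted line of equal values. Myct1 lies farthest left at -6.27 and the lost genes spread from there to Acvrl1 at -0.47, while Vwf is at 1.03 and 0.60.

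Promoter sequences are shown for Emcn and Myct1, which retained the least RNA, for Eng, the most abundant of the lost genes, and for Tek, 1 of the 2 kept genes with a matched promoter. RefSeq promoters on GRCm38.p6 were matched for 14 of the 32 genes, in 19 windows. The windows below lie on the + strand, end at the base before the annotated gene start, and are chr3:137340828-137341066, chr10:5593478-5593727, chr2:32646345-32646594 and chr4:94739039-94739288. Capitals mark 3 short motifs or their reverse complements. The first, AGGAAG, is the core bound by ETS factors with its flank. The next one, AACAAT, is bound by SOX factors. The last motif searched for was AGATAA, which GATA factors bind.
Emcn: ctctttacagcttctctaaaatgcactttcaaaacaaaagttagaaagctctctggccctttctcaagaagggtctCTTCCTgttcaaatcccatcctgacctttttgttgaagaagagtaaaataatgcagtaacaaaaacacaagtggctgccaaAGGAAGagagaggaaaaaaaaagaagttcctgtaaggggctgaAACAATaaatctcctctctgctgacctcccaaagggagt
Myct1: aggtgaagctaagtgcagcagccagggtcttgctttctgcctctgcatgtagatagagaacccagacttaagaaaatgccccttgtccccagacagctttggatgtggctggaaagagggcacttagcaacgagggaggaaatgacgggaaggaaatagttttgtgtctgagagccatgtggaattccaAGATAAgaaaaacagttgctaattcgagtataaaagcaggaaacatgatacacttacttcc
Eng: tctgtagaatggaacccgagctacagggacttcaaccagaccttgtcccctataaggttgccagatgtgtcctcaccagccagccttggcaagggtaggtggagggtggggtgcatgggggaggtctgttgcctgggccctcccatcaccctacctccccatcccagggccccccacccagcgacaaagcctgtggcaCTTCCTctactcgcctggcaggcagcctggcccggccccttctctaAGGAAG
Tek: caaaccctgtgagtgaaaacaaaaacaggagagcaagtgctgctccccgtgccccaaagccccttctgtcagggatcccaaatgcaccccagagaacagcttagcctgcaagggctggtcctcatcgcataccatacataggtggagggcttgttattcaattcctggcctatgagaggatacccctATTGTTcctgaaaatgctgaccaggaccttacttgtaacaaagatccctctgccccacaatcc
The Emcn window holds 2 ETS matches and 1 SOX match, the Eng window 2 ETS matches, the Myct1 window 1 GATA match and the Tek window 1 SOX match. Searched on both strands in the 250 bases before the start, the ETS letters were found in 9 of the 19 windows, where 29.5% of 32851 mouse promoters hold them. By class, 7 of 12 windows of lost genes held them, 1 of 2 of kept genes (Rasip1 but not Tek), 1 of 3 of genes lower in 1 comparison (Calcrl) and none of the 2 of untested genes. Some genes have several windows, so windows are not independent, and the numbers are too small to set the classes apart. The SOX letters were found in 4 windows (9.42% of all promoters) and the GATA letters in 3 (9.99% of all promoters). None of the 3 motifs overlaps another by its letters, and a match is a description and not a bound site.

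Transcription factors of the endothelial programme were divided between the classes. Of 6 tested, 3 were lost (Sox7, Sox18 and Erg), Tal1 was lower in unstimulated cultures only, and Fli1 and Lmo2 were kept. Erg (ENSMUSG00000040732, chromosome 16, 95359169 to 95586593), the ETS factor that sustains VE-cadherin expression, was at 7.08, 4.63 and 6.45 CPM in unstimulated control libraries 1 to 3 and 0.644, 0.3004 and 0.173 CPM in unstimulated Smad7-KO libraries. With TGF-β1 it was at 4.17, 4.51 and 5.39 CPM in control and 0.758, 0.8596 and 0.377 CPM in Smad7-KO libraries. Erg differed by a log2 fold change of -4.04 (SE 0.39, adjusted p = 8.93e-05) without and -2.797 (SE 0.36, adjusted p = 0.000687) with TGF-β1. No Smad7-KO library came near the lowest control value. Sox18 (ENSMUSG00000046470, chromosome 2, 181669836 to 181671640), a SOX factor of vascular and lymphatic development, was low throughout, at 2.06, 2.0 and 1.26 CPM in unstimulated control and 0.0991, 0.129 and 0.0868 CPM in unstimulated Smad7-KO libraries. TGF-β1 control libraries held 1.13, 1.75 and 1.26 CPM and TGF-β1 Smad7-KO libraries 0.0798, 0.0905 and 0.236 CPM. The differences of -4.003 (SE 0.45, adjusted p = 0.000237) and -3.33 (SE 0.44, adjusted p = 0.000773) rest on 2, 3 and 2 counted reads in the unstimulated and 2, 2 and 5 in the TGF-β1 Smad7-KO libraries. Sox18 reads were therefore few but present in every library.

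Sox7, another SOX factor of early vessels, was at 4.53, 5.599 and 4.89 CPM in unstimulated control and 2.08, 1.59 and 1.82 CPM in unstimulated Smad7-KO libraries. Stimulated libraries held 3.03, 3.29 and 1.75 CPM in control and 0.758, 0.905 and 0.896 CPM in Smad7-KO cultures. Sox7 differed by a log2 fold change of -1.45 (SE 0.24, adjusted p = 0.00228) without and -1.66 (SE 0.26, adjusted p = 0.00217) with TGF-β1, so that 36.6% and 31.7% of the control mean remained. Tal1, which joins Lmo2 in a complex of blood and endothelial progenitors, was at 8.52, 9.48 and 11.8 CPM in unstimulated control and 5.35, 5.84 and 6.33 CPM in unstimulated Smad7-KO libraries. It was at 15.2, 12.7 and 13.3 and 10.8, 12.3 and 9.96 CPM in TGF-β1 control and TGF-β1 Smad7-KO libraries. The difference was called in unstimulated cultures, at -0.77 (SE 0.15, adjusted p = 0.006396), but not in stimulated ones, at -0.32 (SE 0.15, adjusted p = 0.184). Control and Smad7-KO libraries of Tal1 did not overlap in either comparison, and the unstimulated call was lost where only the libraries of that comparison were fitted (adjusted p = 0.0607).

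Among receptors, the sharpest loss was in Tie1 (ENSMUSG00000033191, chromosome 4, 118471191 to 118490061), the orphan partner of the angiopoietin receptor Tek. Tie1 was at 16.8, 15.7 and 16.2 CPM in unstimulated control libraries and 0.644, 0.644 and 0.607 CPM in unstimulated Smad7-KO libraries. It was at 16.9, 18.8 and 16.03 CPM in TGF-β1 control libraries and 0.439, 1.04 and 0.708 CPM in those of TGF-β1 Smad7-KO. Tie1 differed by a log2 fold change of -4.67 (SE 0.23, adjusted p = 4.65e-07) without and -4.57 (SE 0.22, adjusted p = 5.75e-07) with TGF-β1, a 25.7-fold and 23.7-fold lower mean. Tek, described below among kept genes, stood beside it with 85.01% and 65.3% of the control mean.

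The receptors of BMP9 and BMP10 showed smaller differences. Eng (ENSMUSG00000026814, chromosome 2, 32646595 to 32682669), the coreceptor endoglin, was at 343, 311 and 333 CPM in unstimulated control and 169, 162 and 173 CPM in unstimulated Smad7-KO libraries. It was at 352, 356 and 356 CPM in TGF-β1 control libraries and 196, 190.2 and 194 CPM in those of TGF-β1 Smad7-KO. Eng differed by a log2 fold change of -0.97 (SE 0.08, adjusted p = 2.91e-05) without and -0.87 (SE 0.08, adjusted p = 7.72e-05) with TGF-β1. Of the Eng RNA 51.01% and 54.6% therefore remained, with little spread between libraries. Acvrl1, the type I receptor ALK1, was at 165, 149 and 151 CPM in unstimulated control and 112, 112 and 112 CPM in unstimulated Smad7-KO libraries. Stimulated control libraries held 119.9, 129 and 126 CPM and stimulated Smad7-KO libraries 98.8, 95.8 and 109.8 CPM. Acvrl1 differed by a log2 fold change of -0.47 (SE 0.09, adjusted p = 0.00457) without and -0.301 (SE 0.09, adjusted p = 0.0462) with TGF-β1. The second adjusted p was the highest of any lost gene, and the call was absent in 13 of the 20 alternative fits, among them those without any 1 of the 6 TGF-β1 libraries, and the unstimulated call was absent where only the libraries of the comparison were fitted (adjusted p = 0.0665).

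Ramp2 and Calcrl encode both parts of the adrenomedullin receptor, and Ramp2, the accessory protein, was lower in both comparisons whereas Calcrl was lower in 1. Ramp2 was at 4.26, 5.94 and 3.25 CPM in unstimulated control and 0.793, 0.987 and 0.304 CPM in unstimulated Smad7-KO libraries. It was at 1.698, 3.25 and 1.85 CPM in TGF-β1 control libraries and 0.758, 0.362 and 0.236 CPM in those of TGF-β1 Smad7-KO. Ramp2 differed by a log2 fold change of -2.68 (SE 0.46, adjusted p = 0.00297) without and -2.29 (SE 0.49, adjusted p = 0.0112) with TGF-β1. The second call was lost without TGF-β1 control library 2 (adjusted p = 0.0584) or TGF-β1 Smad7-KO library 2 (adjusted p = 0.0563). Calcrl, the receptor protein itself, ranged over 41.01 to 55.7 CPM in unstimulated control and 32.9 to 41.8 CPM in unstimulated Smad7-KO libraries, which overlapped, and over 25.3 to 31.98 and 15.8 to 19.7 CPM in TGF-β1 control and TGF-β1 Smad7-KO libraries, which did not. The difference was -0.31 (SE 0.15, adjusted p = 0.123) without TGF-β1, which was not called, and -0.67 (SE 0.15, adjusted p = 0.01396) with TGF-β1. The call with TGF-β1 was lost without TGF-β1 control library 1, TGF-β1 Smad7-KO library 2 or TGF-β1 Smad7-KO library 3.

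Junction and surface proteins were nearly all lower, with 6 of 7 tested called lower in unstimulated and 5 of 7 in stimulated Smad7-KO cultures, and none called higher. Of all tested genes, 13.7% in unstimulated and 7.23% in stimulated Smad7-KO cultures were called lower. The summed level of the 9 genes was 341 to 439 CPM in unstimulated control and 92.8 to 105 CPM in unstimulated Smad7-KO libraries, and 320.2 to 379 and 87.04 to 89.1 CPM in stimulated ones. Most of the unstimulated control sum was Emcn and Cd34, with means of 152 and 177 CPM. Cd34, at 81.9 CPM, was most of the unstimulated Smad7-KO sum. Emcn (ENSMUSG00000054690, chromosome 3, 137341067 to 137432185), the sialomucin endomucin of capillaries and veins, was at 152, 189.8 and 114 CPM in unstimulated control and 5.25, 4.33 and 4.42 CPM in unstimulated Smad7-KO libraries. With TGF-β1 it was at 130.1, 165 and 122 CPM in control and 4.03, 4.39 and 5.85 CPM in Smad7-KO libraries. Emcn differed by a log2 fold change of -5.02 (SE 0.23, adjusted p = 3.84e-07) without and -4.87 (SE 0.23, adjusted p = 5.75e-07) with TGF-β1, or 32.5-fold and 29.2-fold lower means. All 6 Smad7-KO libraries lay within a narrow band far below the 6 control libraries.

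Cdh5 (ENSMUSG00000031871, chromosome 8, 104101625 to 104144502), which encodes VE-cadherin of the endothelial adherens junction, was at 37.3, 23.1 and 42.4 CPM in unstimulated control and 3.27, 2.53 and 3.38 CPM in unstimulated Smad7-KO libraries. It was at 46.3, 37.01 and 40.7 CPM in TGF-β1 control libraries and 3.55, 4.84 and 3.25 CPM in those of TGF-β1 Smad7-KO. Cdh5 differed by a log2 fold change of -3.48 (SE 0.25, adjusted p = 9.09e-06) without and -3.41 (SE 0.24, adjusted p = 1.20e-05) with TGF-β1. Unstimulated control library 2 was lowest among controls and still far above the Smad7-KO libraries, and the unstimulated difference was -3.699 without it. Plvap, which forms the diaphragms of fenestrae and caveolae, was at 8.38, 10.7 and 5.32 CPM in unstimulated control and 2.23, 1.67 and 1.65 CPM in unstimulated Smad7-KO libraries. Its values with TGF-β1 were 7.198, 11.8 and 8.89 CPM in control and 1.96, 1.76 and 1.84 CPM in Smad7-KO libraries. Plvap differed by a log2 fold change of -2.13 (SE 0.28, adjusted p = 0.000597) without and -2.32 (SE 0.27, adjusted p = 0.000465) with TGF-β1, so that 22.8% and 19.9% of the RNA remained.

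Cd34, a sialomucin shared by endothelium, blood progenitors and stromal cells, was at 173, 195 and 165 CPM in unstimulated control and 87.3, 81.3 and 77.1 CPM in unstimulated Smad7-KO libraries. It was at 132, 150.4 and 135 CPM in TGF-β1 control libraries and 69.2, 69.1 and 70.1 CPM in those of TGF-β1 Smad7-KO. Cd34 differed by a log2 fold change of -1.11 (SE 0.099, adjusted p = 4.21e-05) without and -1.0 (SE 0.099, adjusted p = 0.000107) with TGF-β1. Cd34 therefore stood at 46.2% and 49.99% of control, with Emcn at 3.08% and 3.42% in the same libraries. Icam2, a constitutive adhesion molecule, was low, at 2.64, 3.43 and 1.98 CPM in unstimulated control and 1.04, 1.29 and 0.521 CPM in unstimulated Smad7-KO libraries. Stimulated libraries held 1.46, 1.79 and 0.826 CPM in control and 0.479, 0.0452 and 0.425 CPM in Smad7-KO cultures, the last set resting on 12, 1 and 9 reads. Icam2 differed by a log2 fold change of -1.49 (SE 0.49, adjusted p = 0.04504) without and -2.08 (SE 0.57, adjusted p = 0.0332) with TGF-β1, and these calls were absent in 13 and 7 of the 20 alternative fits, so Icam2 belongs to the lost genes with little margin. Ecscr, a surface protein that regulates endothelial migration, was at 9.64, 14.2 and 8.01 CPM in unstimulated control and 4.26, 4.38 and 4.34 CPM in unstimulated Smad7-KO libraries. With TGF-β1 it was at 7.44, 11.4 and 10.1 and 6.302, 5.75 and 6.51 CPM in control and Smad7-KO libraries. Libraries did not overlap in either comparison, but only the unstimulated difference of -1.29 (SE 0.22, adjusted p = 0.00267) was called, the stimulated one being -0.64 (SE 0.21, adjusted p = 0.0708).

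Of the 4 secreted proteins, 3 were lost and Vwf was higher. Egfl7, a matrix-bound vascular protein whose gene also hosts a miRNA of endothelial cells, was at 10.2, 16.5 and 7.72 CPM in unstimulated control and 1.14, 0.816 and 1.91 CPM in unstimulated Smad7-KO libraries. It was at 4.25, 6.26 and 4.03 CPM in TGF-β1 control libraries and 0.718, 0.407 and 1.08 CPM in those of TGF-β1 Smad7-KO. Egfl7 differed by a log2 fold change of -3.14 (SE 0.396, adjusted p = 0.000514) without and -2.72 (SE 0.42, adjusted p = 0.00208) with TGF-β1. The control spread was wide, with unstimulated control library 2 highest, and the unstimulated difference was -2.78 without that library. Mmrn2, the endothelial matrix protein multimerin 2, was at 9.55, 2.8 and 8.61 CPM in unstimulated control and 1.29, 0.773 and 0.694 CPM in unstimulated Smad7-KO libraries. Its values with TGF-β1 were 6.995, 4.799 and 5.15 CPM in control and 0.638, 0.136 and 0.708 CPM in Smad7-KO libraries. Mmrn2 differed by a log2 fold change of -2.94 (SE 0.502, adjusted p = 0.00275) without and -3.496 (SE 0.54, adjusted p = 0.00203) with TGF-β1. Here unstimulated control library 2 was the lowest control, at 0.309 of the mean of libraries 1 and 3, yet above all Smad7-KO libraries, and the difference was -3.31 without it. Esm1, the proteoglycan endocan of sprouting tip cells, was at 10.3, 12.1 and 11.6 CPM in unstimulated control and 4.16, 4.89 and 4.68 CPM in unstimulated Smad7-KO libraries. It was at 9.66, 12.1 and 9.38 and 6.22, 5.29 and 5.43 CPM in TGF-β1 control and TGF-β1 Smad7-KO libraries. Esm1 differed by a log2 fold change of -1.31 (SE 0.15, adjusted p = 0.000234) without and -0.88 (SE 0.14, adjusted p = 0.00276) with TGF-β1, a milder loss that left 40.4% and 54.4%.

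Myct1 (ENSMUSG00000046916, chromosome 10, 5593728 to 5606787), a gene with strong expression in endothelial cells, had the largest Smad7-KO difference of all the endothelial genes in unstimulated cultures. It was at 18.6, 22.4 and 15.99 CPM in unstimulated control and 0.347, 0.172 and 0.217 CPM in unstimulated Smad7-KO libraries, the latter being 7, 4 and 5 reads. It was at 26.1, 29.98 and 21.8 CPM in TGF-β1 control libraries and 1.197, 1.09 and 0.896 CPM in those of TGF-β1 Smad7-KO, the latter being 30, 24 and 19 reads. Myct1 differed by a log2 fold change of -6.27 (SE 0.26, adjusted p = 2.74e-07) without and -4.603 (SE 0.22, adjusted p = 5.75e-07) with TGF-β1, or 77.6-fold and 24.5-fold lower means. On the log2(FPKM + 1) scale of limma, which understates the change of low genes, these differences were -2.83 and -2.92. On that scale the unstimulated difference was also smaller for Tie1 (-2.06), Erg (-1.35), Sox18 (-0.96) and Mmrn2 (-1.11), each still called.

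Kept genes comprised Fli1, Lmo2, Tek, S1pr1, Podxl, Vwf and Rasip1, with 49.2% (Podxl) to 205% (Vwf) of the control mean in unstimulated and 50.6% (Podxl) to 152% (Vwf) in stimulated Smad7-KO cultures. Kept means that no lower call was made, and a p that misses the threshold does not show equal levels. In unstimulated cultures 3 of the 7 had every Smad7-KO library above every control library, 3 overlapped and 1 was below. In stimulated cultures 4 were above and 3 below. Of all tested genes, 22.1% in unstimulated and 21.9% in stimulated cultures had every Smad7-KO library above every control library. Vwf (ENSMUSG00000001930, chromosome 6, 125546774 to 125686679), the clotting protein stored in Weibel-Palade bodies, was at 15.1, 11.7 and 17.6 CPM in unstimulated control and 33.7, 25.97 and 31.5 CPM in unstimulated Smad7-KO libraries. It was at 18.9, 14.4 and 17.6 CPM in TGF-β1 control libraries and 26.96, 26.3 and 24.2 CPM in those of TGF-β1 Smad7-KO. Vwf differed by a log2 fold change of 1.03 (SE 0.16, adjusted p = 0.00194) without and 0.605 (SE 0.16, adjusted p = 0.0314) with TGF-β1. Vwf was thus 2.05-fold and 1.52-fold higher while Emcn and Cdh5 were lower in the same libraries. Vwf has the longest transcript of the 26 genes, and with each library's trend on gene length removed its differences were 0.56 (adjusted p = 0.00566) and 0.36 (adjusted p = 0.051), so the second call was lost. The call with TGF-β1 was also lost with limma and without TGF-β1 control library 2 or 3, unstimulated Smad7-KO library 3 or any 1 of the TGF-β1 Smad7-KO libraries.

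S1pr1 (ENSMUSG00000045092, chromosome 3, 115710433 to 115715055), the sphingosine 1-phosphate receptor of endothelium and lymphocytes, was the other gene called higher in both comparisons. It ranged over 77.7 to 82.04 CPM in unstimulated control and 101 to 112 CPM in unstimulated Smad7-KO libraries, and over 140.3 to 149 and 182 to 202 CPM in TGF-β1 control and TGF-β1 Smad7-KO libraries. S1pr1 differed by a log2 fold change of 0.38 (SE 0.09, adjusted p = 0.0118) without and 0.42 (SE 0.09, adjusted p = 0.00943) with TGF-β1. The groups did not overlap, although the unstimulated call was lost without unstimulated Smad7-KO library 2 or with the libraries of the comparison alone, and the stimulated call was lost without TGF-β1 Smad7-KO library 1 or 2. Fli1, the ETS factor shared by blood and endothelium, ranged over 37.8 to 45.8 CPM in unstimulated control and 49.95 to 52.3 CPM in unstimulated Smad7-KO libraries, with 29.3 to 34.8 and 36.5 to 42.96 CPM after TGF-β1. Its differences of 0.27 (SE 0.11, adjusted p = 0.0809) and 0.31 (SE 0.11, adjusted p = 0.0866) did not pass the test. Lmo2, the LIM adaptor of the Tal1 complex, ranged over 107 to 156 and 156 to 162 CPM in unstimulated control and Smad7-KO libraries, which overlapped, and over 73.3 to 84.8 and 93.5 to 118 CPM after TGF-β1. The differences were 0.301 (SE 0.14, adjusted p = 0.123) and 0.36 (SE 0.14, adjusted p = 0.124). Erg and Fli1, both ETS factors, therefore stood on different sides of the division, with Erg at 6.16% and Fli1 at 121% of control in unstimulated cultures.

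Tek (ENSMUSG00000006386, chromosome 4, 94739289 to 94874976), the angiopoietin receptor TIE2, ranged over 9.03 to 14.6 CPM in unstimulated control and 9.02 to 9.83 CPM in unstimulated Smad7-KO libraries. The difference was -0.24 (SE 0.18, adjusted p = 0.317) with overlapping libraries. With TGF-β1, Tek ranged over 6.02 to 7.32 CPM in control and 3.94 to 4.76 CPM in Smad7-KO libraries. These did not overlap, and the difference of -0.61 (SE 0.19, adjusted p = 0.0502) missed the threshold narrowly. Podxl, the sialomucin podocalyxin of endothelium, podocytes and mesothelium, was at 2.51, 2.57 and 4.01 CPM in unstimulated control and 0.892, 2.27 and 1.301 CPM in unstimulated Smad7-KO libraries, and at 3.68, 1.59 and 2.38 and 1.44, 1.49 and 0.944 CPM after TGF-β1. Although the mean was near 49.2% of control, the differences of -1.02 (SE 0.39, adjusted p = 0.0711) and -0.98 (SE 0.396, adjusted p = 0.1295) did not pass the test. With the gene length trend removed they were -1.26 (adjusted p = 0.0164) and -1.07 (adjusted p = 0.042), and both were called. Rasip1, an effector of Ras-like GTPases in vessel lumen formation, ranged over 1.14 to 2.63 and 1.16 to 1.34 CPM in unstimulated control and Smad7-KO libraries and over 1.07 to 1.55 and 0.633 to 0.802 CPM after TGF-β1, with differences of -0.37 (SE 0.33, adjusted p = 0.402) and -0.79 (SE 0.35, adjusted p = 0.159).

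Another 6 genes had too few reads to be tested. Sox17, a SOX factor of arterial endothelium, had 5, 6, 20 and 3 reads in all over the 3 libraries of unstimulated control, unstimulated Smad7-KO, TGF-β1 control and TGF-β1 Smad7-KO. Gpihbp1, which carries lipoprotein lipase into capillaries, had 3, 2, 29 and 0 reads in the same order. Its reads were thus concentrated in TGF-β1 control libraries, where 3 to 15 were counted per library. Clec14a, a lectin of vessel-forming endothelium, had 25, 6, 24 and 7 reads. Cldn5, the claudin of endothelial tight junctions, had 6, 2, 8 and 0 reads. The junction gene Cldn5 was therefore close to undetected in every group, and a count of 0 allows up to 3 reads, counting error only. Nos3, the endothelial nitric oxide synthase, had 20, 14, 21 and 12 reads, and Aplnr, the apelin receptor, had 7, 2, 13 and 3 reads. No fold change is given for these genes.

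Per length, the order of the genes changed between genotypes. In FPKM, where each count is divided by gene length and by the library total, Eng was highest in unstimulated control libraries at 91.7 ± 10.1 (SD, n = 3), followed by Lmo2 at 74.6 ± 9.41, Cd34 at 66.98 ± 1.397, Acvrl1 at 42.4 ± 4.502, Emcn at 42.4 ± 8.07 and S1pr1 at 26.4 ± 1.76. Lmo2 and Cd34 did not differ beyond their spread, nor did Acvrl1 and Emcn. In unstimulated Smad7-KO libraries Lmo2 was at 94.1 ± 1.896 FPKM, Eng at 47.4 ± 1.66, S1pr1 at 34.9 ± 1.99, Cd34 at 31.5 ± 2.02 and Acvrl1 at 30.99 ± 0.176 (SD, n = 3). Emcn was at 1.34 ± 0.147 FPKM there, below Vwf at 3.47 ± 0.461 FPKM. The junction gene Cdh5 was at 8.65 ± 2.98 FPKM in unstimulated control and 0.775 ± 0.117 FPKM in unstimulated Smad7-KO libraries. The highest genes in unstimulated Smad7-KO libraries were therefore Lmo2, Eng, S1pr1, Cd34 and Acvrl1, which already ranked 2, 1, 6, 3 and 4 in unstimulated control. None of them is restricted to endothelium, and which cells held their RNA was not tested.

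Of the 26 tested genes, 7 were called for TGF-β1 in each genotype. In control cultures TGF-β1 lowered 6 of the 26 genes (Sox7, Fli1, Lmo2, Tek, Calcrl and Cd34) and raised S1pr1, where 3.33% of all tested genes were called lower and 5.04% higher. In Smad7-KO cultures it lowered 4 (Sox7, Lmo2, Tek and Calcrl) and raised 3 (Tal1, S1pr1 and Myct1), where 4.9% of all tested genes were called lower and 5.33% higher. The median log2 response was -0.31 in control and -0.18 in Smad7-KO cultures, against -0.03 and -0.01 for all tested genes. The comparison in control cultures shares its unstimulated libraries with the Smad7-KO comparison above.

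**Figure D3:**
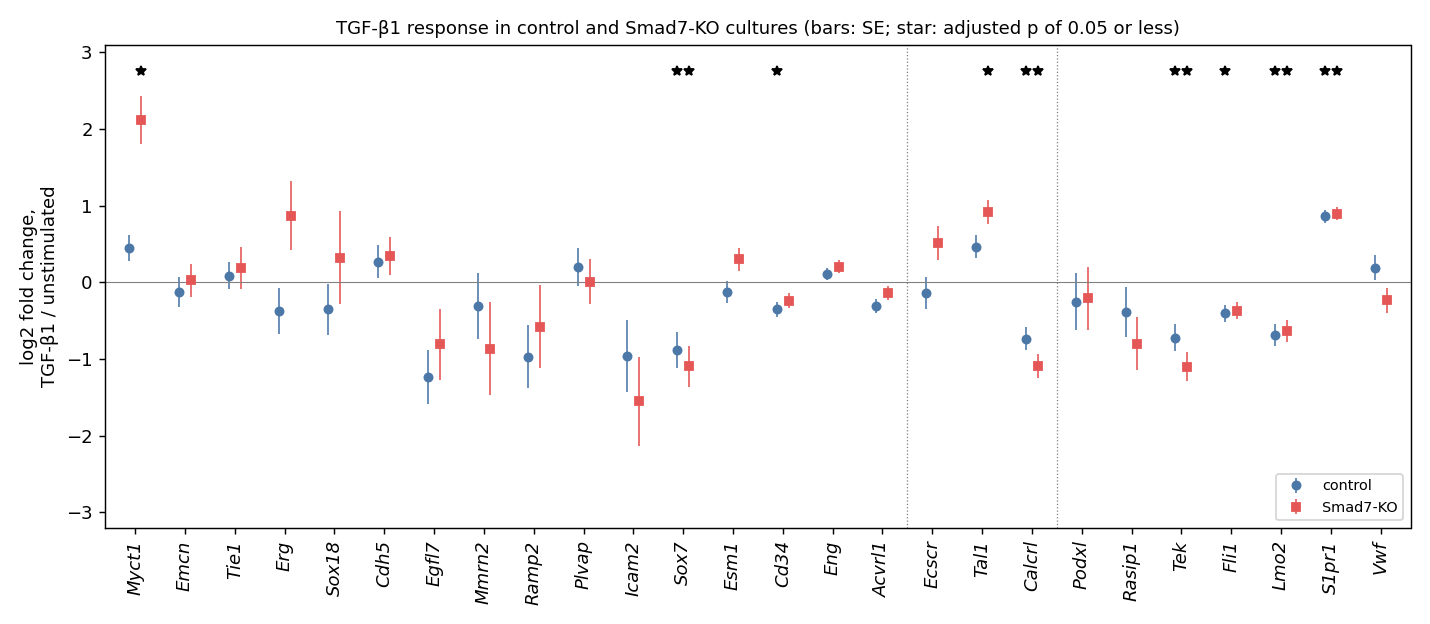
Log2 fold change of TGF-β1 over no stimulation in control (circles) and Smad7-KO (squares) cultures for the 26 tested genes, with bars of 1 standard error and a star for an adjusted p of 0.05 or less. S1pr1 rose by 0.86 and 0.90, Calcrl and Tek fell in both, and Myct1 was 0.45 in control and 2.12 in Smad7-KO cultures.

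S1pr1 rose most steadily. Its mean went from 80.4 ± 2.36 to 146 ± 4.85 CPM in control and from 105 ± 6.08 to 195 ± 11.4 CPM in Smad7-KO cultures (SD, n = 3). The log2 response was 0.86 (SE 0.09, adjusted p = 8.28e-05) in control and 0.897 (SE 0.09, adjusted p = 4.79e-05) in Smad7-KO cultures. All stimulated libraries lay above all unstimulated ones of their genotype. Calcrl and Tek, receptors of adrenomedullin and angiopoietins, fell in both genotypes. Calcrl, with mean values of 47.7 ± 7.44 and 28.6 ± 3.34 CPM in control and 38.4 ± 4.78 and 18 ± 1.98 CPM in Smad7-KO cultures (SD, n = 3), had log2 responses of -0.74 (SE 0.15, adjusted p = 0.00866) and -1.09 (SE 0.15, adjusted p = 0.000601). Tek, with 11.1 ± 2.99 and 6.76 ± 0.669 CPM in control and 9.46 ± 0.411 and 4.42 ± 0.4299 CPM in Smad7-KO cultures (SD, n = 3), had responses of -0.72 (SE 0.18, adjusted p = 0.0274) and -1.099 (SE 0.18, adjusted p = 0.00228). The Smad7-KO responses of both receptors were called in every alternative fit, whereas in control cultures that of Tek was lost in 5 fits, among them those without any 1 TGF-β1 control library, and that of Calcrl in 1.

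The transcription factors moved in both directions. Lmo2 fell with log2 responses of -0.69 (SE 0.14, adjusted p = 0.00967) in control and -0.64 (SE 0.14, adjusted p = 0.0131) in Smad7-KO cultures, to 61.95% and 64.3% of the unstimulated mean. The first call was lost without TGF-β1 control library 1 or with the libraries of the comparison alone, and the second without unstimulated Smad7-KO library 3 or TGF-β1 Smad7-KO library 1 or 2. Sox7 fell in both, with responses of -0.89 (SE 0.23, adjusted p = 0.0355) and -1.097 (SE 0.27, adjusted p = 0.0212), though these calls were lost in 13 and 6 of the 20 alternative fits. Fli1, at -0.41 (SE 0.11, adjusted p = 0.0398) and -0.37 (SE 0.11, adjusted p = 0.0531), passed the test in control cultures only, and lost it in 13 fits. Cd34 was similar, at -0.35 (SE 0.098, adjusted p = 0.0469) and -0.24 (SE 0.098, adjusted p = 0.187), with its control call lost in 14 fits. The lowering of Sox7, Fli1 and Cd34 in control cultures therefore rests on narrow margins. Tal1 went the other way, at 0.47 (SE 0.15, adjusted p = 0.0864) in control, not called, and 0.91 (SE 0.15, adjusted p = 0.00231) in Smad7-KO cultures, where it was called in every fit. Erg, Sox18, Tie1, Cdh5, Emcn, Plvap and Eng were called in neither genotype, with responses between -0.37 (Erg) and 0.27 (Cdh5) in control and between 0.01 (Plvap) and 0.87 (Erg) in Smad7-KO cultures. Other lost genes without a call in either genotype fell further. Egfl7 was at -1.23 (SE 0.35, adjusted p = 0.0544) in control and -0.81 in Smad7-KO cultures. In the same order, Ramp2 was at -0.97 and -0.58, Icam2 at -0.96 and -1.55, and Mmrn2 at -0.31 and -0.87. Acvrl1 was at -0.31 (adjusted p = 0.0526) and -0.14, and Esm1 at -0.13 and 0.30.

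Myct1 was the only lost gene called higher with TGF-β1 in Smad7-KO cultures. All 3 stimulated Smad7-KO libraries were above the unstimulated ones, 4.32-fold on average, with a log2 response of 2.12 (SE 0.31, adjusted p = 0.000956). The response was 0.45 (SE 0.17, adjusted p = 0.151) in control cultures, where libraries overlapped. Even so, stimulated Smad7-KO cultures held 4.08% of the stimulated control mean, and with limma on log2(FPKM + 1) the Smad7-KO response was 0.34 (adjusted p = 0.104). Whether the responses differ between genotypes was tested as an interaction. None of the 26 genes passed with edgeR or in any alternative fit that tested the interaction, where 0.0198% of all tested genes (3 genes) did with edgeR. The fits on the compared libraries alone could not test it. At an unadjusted p under 0.05 there were 2, Myct1 with a difference of responses of 1.66 (standard error 0.36, adjusted p = 0.803) and Erg with 1.24 (standard error 0.54, adjusted p = 0.9795). Genes called in 1 genotype only are therefore not shown to respond differently.

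Other endothelial genes, taken from a second list of 24, were divided as well. This list was also chosen with earlier results of these data known, so it is not independent of them. Of 21 tested, 10 were lower and 1 higher in unstimulated and 8 were lower and 2 higher in stimulated Smad7-KO cultures, where the background was 13.7% lower and 12.1% higher, and 7.23% lower and 5.72% higher. Pecam1, the junctional adhesion molecule CD31, was at 52.7, 47.5 and 52.6 CPM in unstimulated control and 2.92, 2.06 and 2.603 CPM in unstimulated Smad7-KO libraries. Pecam1 differed by a log2 fold change of -4.33 (SE 0.16, adjusted p = 1.53e-07) without and -4.23 (SE 0.16, adjusted p = 1.54e-07) with TGF-β1. Pecam1 therefore resembled Emcn, Tie1 and Cdh5 in the size of its loss. Esam, an adhesion molecule of tight junctions, differed by -4.86 (SE 0.36, adjusted p = 1.42e-05) and -3.73 (SE 0.35, adjusted p = 7.72e-05), and Adgrf5, an adhesion receptor of endothelium and lung, by -3.81 (SE 0.39, adjusted p = 0.000131) and -3.45 (SE 0.38, adjusted p = 0.000278). Among genes that were not lower, Cd93, which is shared with myeloid cells, was higher by 1.54 (SE 0.31, adjusted p = 0.006396) and 1.21 (SE 0.31, adjusted p = 0.0252), and Hhex was higher with TGF-β1 by 0.55 (SE 0.15, adjusted p = 0.03101). Kdr, the main VEGF receptor of endothelium, was at 1.59 ± 0.795 CPM in unstimulated control and 2.01 ± 0.232 CPM in unstimulated Smad7-KO libraries (SD, n = 3) and was not called. Etv2, the ETS factor of endothelial specification, had no read in any library. With TGF-β1, 4 of the 21 rose and 1 fell in control cultures, and 4 rose and 2 fell in Smad7-KO cultures, where 5.04% of all tested genes rose and 3.33% fell in control and 5.33% rose and 4.9% fell in Smad7-KO cultures. Notch4, an endothelial Notch receptor, rose by 2.41 (SE 0.15, adjusted p = 3.92e-06) and 2.51 (SE 0.16, adjusted p = 1.93e-06), with Ets1, Elk3 and Flt1 the other 3 that rose in both.

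Markers of endothelial subtypes were few, and the same background holds for their counts. Of 5 tested arterial markers 4 were lower in unstimulated and 3 in stimulated Smad7-KO cultures, led by Gja4 (connexin 37) at -1.61 (SE 0.24, adjusted p = 0.00151) and -1.395 (SE 0.19, adjusted p = 0.00108). Gja4 also rose with TGF-β1, by 2.43 (SE 0.21, adjusted p = 2.20e-05) in control and 2.64 (SE 0.24, adjusted p = 2.60e-05) in Smad7-KO cultures. Of 4 tested venous markers 3 were lower in both comparisons, led in unstimulated cultures by Sele (E-selectin) at -3.498 (SE 0.43, adjusted p = 0.000441) and Selp (P-selectin) at -2.29 (SE 0.41, adjusted p = 0.00355). Cardiac capillary markers were divided, with Aqp1 lower at -2.405 (SE 0.196, adjusted p = 2.38e-05) and Cd36, which macrophages also use, higher at 0.77 (SE 0.14, adjusted p = 0.00444), of 5 tested. Of 3 lymphatic markers tested, Pdpn was lower in unstimulated cultures at -0.28 (SE 0.08, adjusted p = 0.0366) and none in stimulated ones. Of 2 endocardial markers tested, Nfatc1 was higher in both, at 0.62 (SE 0.17, adjusted p = 0.0262) and 0.58 (SE 0.17, adjusted p = 0.0463). The other, Npr3, went the opposite way without a call, with log2 fold changes of -0.41 and -0.47. Among 10 ligands of the receptors, of which 5 were tested, Angpt2, the Tek ligand released by endothelium, was lower in Smad7-KO at -1.16 (SE 0.19, adjusted p = 0.00195) and -1.18 (SE 0.197, adjusted p = 0.00304) and fell with TGF-β1 at -1.03 (SE 0.18, adjusted p = 0.00396) and -1.05 (SE 0.198, adjusted p = 0.00492). Adm, the ligand of the Calcrl and Ramp2 receptor, fell with TGF-β1 at -1.499 (SE 0.16, adjusted p = 0.000103) and -0.97 (SE 0.16, adjusted p = 0.00164).

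Markers of other cell types were measured beside the lost and kept genes, and their counts stand against the same background of 13.7% lower and 12.1% higher among all tested genes in unstimulated and 7.23% lower and 5.72% higher in stimulated Smad7-KO cultures. Of 15 macrophage markers 8 were higher and none lower in unstimulated Smad7-KO cultures, and 7 were higher and none lower in stimulated ones. Some unstimulated means were below control without a call. In control and Smad7-KO libraries these were 2012 and 1662 CPM for C1qa, 1797 and 1728 for C1qc, and 493 and 481 for Tyrobp. Cx3cr1 was at 84.3 and 63.8 CPM and Aif1 at 105 and 68.7 CPM. With TGF-β1 only the Aif1 mean was below. The summed level of the macrophage markers was 18270 to 27990 CPM in unstimulated control, 25960 to 28350 in unstimulated Smad7-KO, 18440 to 21240 in TGF-β1 control and 25740 to 28590 in the stimulated Smad7-KO libraries, with no marker at 0. Lyz2 was the largest part of this sum. The macrophage sum was thus above control in all TGF-β1 Smad7-KO libraries, and unstimulated macrophage sums overlapped between genotypes. The kept genes summed to 275 to 296 CPM in TGF-β1 control and 367 to 371 CPM in TGF-β1 Smad7-KO libraries. Unstimulated, they summed to 272 to 301 and 352 to 362 CPM. These genes were chosen from the same libraries for not being called lower, so the height of their sum is a description. Its largest parts were Lmo2 and S1pr1, with means of 129 and 80.4 CPM in unstimulated control libraries. Of 12 fibroblast markers 2 were higher and 3 lower in unstimulated Smad7-KO cultures and 2 higher and 2 lower in stimulated ones. Thy1 was the lowest, at -1.55 (SE 0.12, adjusted p = 1.32e-05) and -1.34 (SE 0.12, adjusted p = 4.47e-05). Lum, at few CPM, was the highest, with log2 fold changes of 0.80 and 1.41. Dcn averaged 561 and 682 CPM in unstimulated and 532 and 685 CPM in stimulated control and Smad7-KO libraries. In the same order, Tcf21 averaged 138 and 56.2 CPM, then 128.5 and 69.7 CPM. Mfap5 averaged 153.8 and 82.0 CPM, then 150.1 and 107.6 CPM. The fibroblast sum was 9814 to 20440, 15360 to 17520, 13870 to 17450 and 13700 to 16220 CPM in the same order of groups. Fibroblast sums therefore overlapped between genotypes. Fn1 and Col3a1 made up most of them, with means of 5287 and 5132 CPM in unstimulated control libraries. Of the mesothelial markers 4 of 6 tested were lower in unstimulated and 2 of 6 in stimulated Smad7-KO cultures, and none was called higher. The mean of Lrrn4, 1 of those not called, was above control in both, with log2 fold changes of 0.36 (SE 0.32, adjusted p = 0.401) and 0.21 (SE 0.32, adjusted p = 0.678). The mesothelial list had sums of 277 to 309.6 and 176 to 212 CPM in unstimulated and 263 to 276 and 168 to 183 CPM in stimulated control and Smad7-KO libraries. Their defining gene Msln was at 9.203 and 5.32 CPM in unstimulated control and Smad7-KO libraries.

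**Figure D4:**
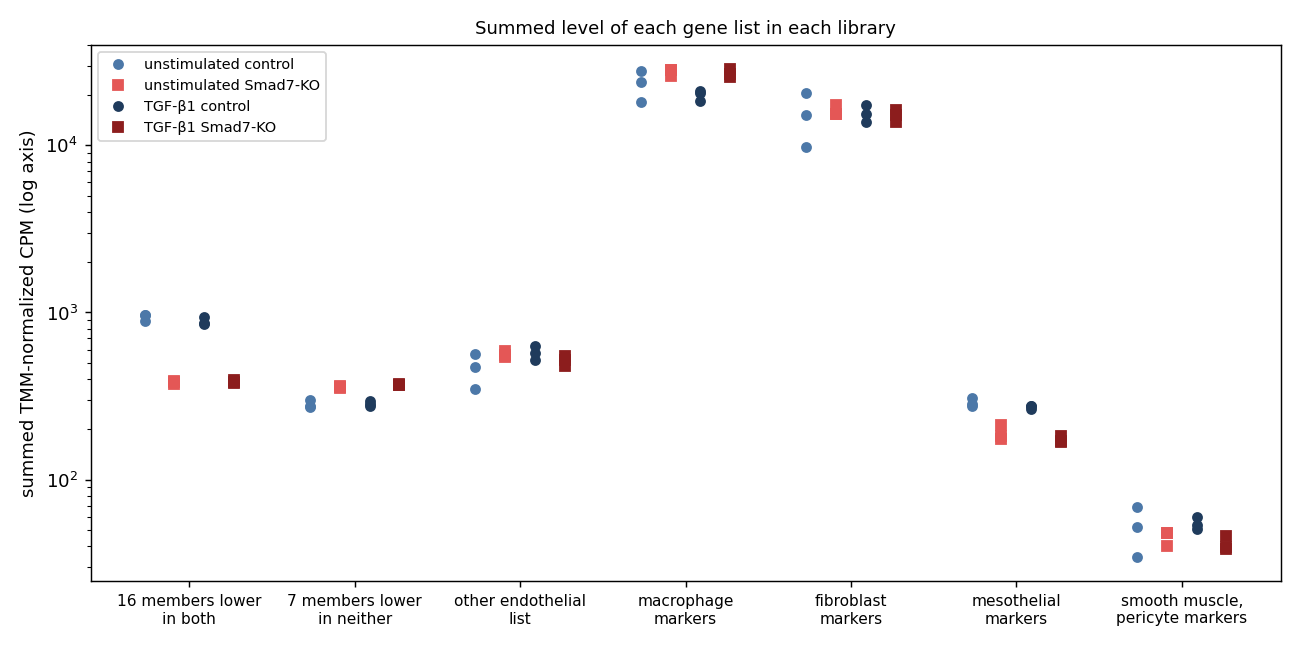
Summed TMM-normalized CPM (log axis) of 7 gene lists, with 1 point per library and 3 libraries per group. The lost genes sum to 888.7 to 969.5 CPM in unstimulated control and 374.7 to 391.4 CPM in unstimulated Smad7-KO libraries. Eng, Acvrl1 and Cd34 make up most of these sums. Macrophage and fibroblast markers lie at 9814 CPM or more in every library.

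Smooth muscle and pericyte markers were low, with sums of 34.5 to 69.05 CPM in unstimulated control and 40.2 to 48.1 CPM in unstimulated Smad7-KO libraries, and 2 of 6 tested were lower in unstimulated and 1 of 6 in stimulated Smad7-KO cultures. Of 5 cardiomyocyte markers tested 2 were lower in unstimulated Smad7-KO cultures and none was called in stimulated ones. The other 3, Myh6, Pln and Myl2, were low and not called. Their unstimulated Smad7-KO libraries all lay above control, as for 22.1% of all tested genes, and the median log2 fold change of the 5 was 1.09. The summed level of the cardiomyocyte list ranged over 34.04 to 77.99 CPM in unstimulated control and 18.8 to 25.1 CPM in unstimulated Smad7-KO libraries. Tnnt2 made up most of it, with means of 45.8 and 17.7 CPM there. With TGF-β1 the sums were 28.9 to 33.3 CPM in control and 18.9 to 21.9 CPM in Smad7-KO libraries. Of 3 erythroid and megakaryocyte markers 2 were lower and 1 higher in unstimulated Smad7-KO cultures, and none was called in stimulated ones. Of 2 Schwann cell markers S100b was lower in both, at -2.48 (SE 0.28, adjusted p = 0.000253) and -2.19 (SE 0.28, adjusted p = 0.000687). Among the listed genes other than the 32, those without a read in the whole of at least 1 group were Etv2, Tcf15, Ccl21a, Cytl1, Apela, Bmp10, Nppa, Muc16, Gata1, Gp9, Hba-a1, Hbb-bt and Sox10. The part of any of these cell types in the loss or retention of the endothelial genes was not tested.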

How the data were processed

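RNA-Seq was performed on 12 libraries of cardiac fibroblasts in 4 groups of 3. The deposited values are the authors' read counts per gene, as whole numbers and not normalized, and FPKM. For all 35275 genes the deposited FPKM was the count over gene length and total. The submitters' processing notes name TopHat2, HTSeq 0.6.1, Cufflinks 2.1.1, mm10 and GRCm38.p6. Strand use in counting is not given in the sources used here, so reads of overlapping or antisense genes are uncertain. Coordinates are those of the deposited table. Columns without a sample numbered 0.

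The members and gene lists were chosen with earlier results of these data known. Counts were filtered (filterByExpr, minimum count 10), scaled by TMM and fitted for all 12 libraries with edgeR 4.0.16 in R 4.3.3 (quasi-likelihood, robust), with Benjamini-Hochberg adjustment over 15150 genes. Standard errors came from the coefficient and its F statistic. An exact permutation test of 3 libraries against 3 cannot go below p = 0.1 and was not used. Values in each library are given for about 20 members with the largest unstimulated difference and ranges for the rest. From other lists, counts and up to 3 called genes with the largest difference in each direction are named, beside a few named for their role. Alternatives were DESeq2 1.42.0, its size factors, edgeR on the compared libraries alone, no filter, limma 3.58.1 on log2(FPKM + 1), the replicate number as a block, a correction of each library for gene length (loess, span 0.3), and leaving out each library. Procedures were tested on simulated data.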

Additional observations from a re-analysis of the deposited data

How the results depend on the processing

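With 20 alternative fits and 1 stricter definition, the number of endothelial genes lower in Smad7-KO stayed between 15 and 20 without TGF-β1 (18 in the report) and between 13 and 21 with TGF-β1 (17 in the report), and the number lost stayed between 13 and 19 (16 in the report). Of the 18 and 17 lower calls, 15 and 13 were made in every fit. Counts that rest on few genes moved more. With only the compared libraries, genes higher in Smad7-KO numbered 1 without and 4 with TGF-β1, and TGF-β1 lowered 0 in control and raised 5 in Smad7-KO cultures. limma on log2(FPKM + 1) gave 1 gene higher in Smad7-KO with TGF-β1 and 2 raised by TGF-β1 in control cultures. With the gene length trend removed, TGF-β1 raised 5 in Smad7-KO cultures. DESeq2 and no filter each gave 12 kept genes, since the 6 genes untested elsewhere enter these fits and count as kept unless called lower. A 2-fold requirement gave 11. No filter gave 5 genes lower in 1 comparison only. Leaving out 1 library at a time gave 1 to 3 genes higher in Smad7-KO without and 0 to 4 with TGF-β1, 1 to 8 lowered and 1 to 2 raised by TGF-β1 in control, 2 to 5 lowered and 3 to 5 raised in Smad7-KO cultures, 6 to 11 kept and 2 to 6 lower in 1 comparison only. The Smad7-KO difference turned direction for Tek without unstimulated control replicate 3 (0.0086, adjusted p = 0.966, the lowest value with 1 library left out being -0.36) and for Rasip1 without unstimulated control replicate 2 (0.10, adjusted p = 0.824, the lowest being -0.58), neither being called before or after. Except where a value above shows it, the cause was not tested.

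No regular pairing of same-numbered libraries was seen. The correlations of their deviations from the group means ranged from -0.21 to 0.52 and were not all above 0.1. Differently numbered libraries reached 0.55 and -0.56 between stimulated and unstimulated control, so this check cannot settle whether preparations were shared. With the replicate number as a block, TGF-β1 lowered 3 genes in control cultures and 5 genes were lower in Smad7-KO in 1 comparison only. Depth limits the 6 genes left untested and those with few reads in Smad7-KO cultures, such as Sox18, Icam2 and Myct1.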
